A study of Mus musculus with 19 samples.

Results

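The p53 target genes other than Perp are 31 mouse genes, the gene for p53 itself included, taken by symbol from the deposited table of 34432 genes. All 31 were found, and 29 of them passed the filter on low values, which asked for a mean of 10 or more normalized counts across the 19 libraries, as did 13976 genes in all. Eda2r and Gdf15 lay under it. Polyadenylated RNA was sequenced from whole marrow flushed out of the leg bones of C57BL/6 mice aged 8 weeks, in 5 genotypes that vary CDK8 and CDK19. DKO mice (n = 4 libraries) carried Cdk8 flox/flox, Vav-iCre and Cdk19null. CDK8KO mice (n = 4 libraries) carried Cdk8 flox/flox and Vav-iCre, and CDK19KO mice (n = 4 libraries) carried Cdk19null without the Cre transgene. VAV mice (n = 4 libraries) carried only Vav-iCre, and WT mice (n = 3 libraries) carried none of these alleles. CDK8 and CDK19 are paralogous kinases of the Mediator complex, which links transcription factors to RNA polymerase II. Vav-iCre expresses Cre recombinase in blood-forming cells, so the Cdk8 allele is recombined in those cells and not by design in the stroma of the marrow, while the Cdk19 allele is null in every cell. DKO was therefore set against VAV, which shares its Cre, and against each single knockout. CDK8KO was set against VAV, CDK19KO against WT, and VAV against WT.

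p53 is a transcription factor that is kept scarce by MDM2, the ubiquitin ligase that marks it for degradation, and that accumulates when DNA is damaged or ribosome assembly is disturbed. It then raises genes that halt the cell cycle, kill the cell, repair DNA and adjust metabolism, Mdm2 among them, so that the response limits itself. Blood-forming cells are among the cells most prone to die through p53, and the p53 response of the marrow is a main limit on how much radiation or chemotherapy a mouse survives. CDK8 is known from work in human cells as a coactivator at several p53 target genes.

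The libraries held 14881701 to 33010241 reads assigned to genes. Normalized counts are these reads divided by the size factor of each library. Whether each library is a separate animal is not given in the labels, so p-values here measure the spread between libraries, which may be partly technical. Cdk19 averaged 1173 ± 43.1 normalized counts in DKO and 1091 ± 62.5 in CDK19KO, against 3668 ± 525 in VAV and 3157 ± 99.7 in WT (SD, n = 4, 4, 4 and 3). Cdk8 averaged 798 ± 62.0 in DKO and 1013 ± 249 in CDK8KO, against 994 ± 230.1 in VAV (SD, n = 4 each), so the counts do not show the Cdk8 deletion and the genotype of the CDK8KO libraries rests on their labels. Ptprc, Mpo and Elane, which mark blood cells and their granulocyte precursors, were read in every library. Transcripts of red cell genes (11 of the 12 listed were found by symbol) were richest in CDK8KO replicate 1 (3.40% of reads) and VAV replicate 3 (3.12%). Transcripts of 8 skeletal muscle genes were richest in CDK19KO replicate 4 (0.105%) and DKO replicate 4 (0.0287%), with at most 0.000635% in VAV and 0.00143% in WT. In bulk marrow, fewer cells of a type and less RNA per cell cannot be told apart.

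The promoters of the members are shown first, since the p53 site is the feature by which such genes are usually defined. RefSeq's promoter table for GRCm38.p6 gave 34 promoters for 24 of the members, each reaching from 250 bases before to 50 bases after a transcription start. Pmaip1, Ddb2, Rrm2b, Trp53inp1, Tnfrsf10b, Xpc and Zmat3 had no entry in it. Each promoter was searched on both strands for the p53 half-site, the 10-base unit that p53 binds in pairs, and for a full site, a pair of half-sites at most 13 bases apart. The sequences below are those of Aen, Cdkn1a, Mdm2 and Ckap2, read 5′ to 3′ along the strand of the gene. Aen is the member that rose in DKO against VAV, Cdkn1a and Mdm2 are the best known p53 targets, and Ckap2 is a member that follows the cell cycle. Gtse1 and Psrc1, which also follow it, held no TTTGAA in their promoters, so Ckap2 does not stand for them in this. The capitals mark a p53 half-site in Aen (chr7:78895677-78895976, plus strand) and in Mdm2 (chr10:117710709-117711008, minus strand). In Cdkn1a (chr17:29090729-29091028, plus strand) they mark a match to the full-site pattern. In Ckap2 (chr8:22185770-22186069, minus strand) they mark the hexamer TTTGAA, the element known as CHR in promoters of mitotic genes.
Aen: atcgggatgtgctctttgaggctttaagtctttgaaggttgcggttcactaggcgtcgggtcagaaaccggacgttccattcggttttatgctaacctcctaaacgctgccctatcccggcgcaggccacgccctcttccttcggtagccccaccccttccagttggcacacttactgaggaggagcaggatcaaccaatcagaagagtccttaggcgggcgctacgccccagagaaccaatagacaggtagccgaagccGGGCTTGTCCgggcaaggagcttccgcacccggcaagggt
Cdkn1a: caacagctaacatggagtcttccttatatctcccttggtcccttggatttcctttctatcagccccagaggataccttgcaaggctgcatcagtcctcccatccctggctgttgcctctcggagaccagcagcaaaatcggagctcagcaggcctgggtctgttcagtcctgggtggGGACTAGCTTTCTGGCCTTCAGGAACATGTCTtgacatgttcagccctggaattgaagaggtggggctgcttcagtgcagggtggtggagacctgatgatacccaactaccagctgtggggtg
Mdm2: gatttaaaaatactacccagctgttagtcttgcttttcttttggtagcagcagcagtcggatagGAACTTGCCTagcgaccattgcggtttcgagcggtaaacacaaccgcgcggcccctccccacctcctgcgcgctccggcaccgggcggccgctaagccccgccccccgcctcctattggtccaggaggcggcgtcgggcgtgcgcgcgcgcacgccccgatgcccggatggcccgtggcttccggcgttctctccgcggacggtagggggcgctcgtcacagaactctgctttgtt
Ckap2: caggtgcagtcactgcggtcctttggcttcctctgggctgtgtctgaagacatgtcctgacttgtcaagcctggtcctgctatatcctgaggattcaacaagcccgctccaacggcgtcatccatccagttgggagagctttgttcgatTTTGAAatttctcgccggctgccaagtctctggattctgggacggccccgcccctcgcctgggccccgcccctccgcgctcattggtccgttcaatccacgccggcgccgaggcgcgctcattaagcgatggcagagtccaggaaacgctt

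The half-site of Aen lay 11 to 20 bases after this start and also fell within the window of a second start of the gene. In Mdm2 the half-site lay at -186 to -177. In Cdkn1a the full-site match lay at -73 to -42 from the upstream of its 2 listed starts. It pairs half-sites at -73 to -64 and -51 to -42. A further CATG lies at -38 to -35, outside the capitals. It is part of tgacatgttc, the 10 bases that directly adjoin the half-site at -51 to -42. These bases miss the half-site pattern only by their first, a T where the pattern takes A or G. The search allowed no mismatch, so it did not count them. Which of these stretches p53 binds was not tested. Cdkn1a was the one member with a full-site match in these windows, which 0.0731% of all 32851 promoters held. A half-site was present for 12 members, namely Aen, Bax, Ccng1, Cdkn1a, Ckap2, Ei24, Gtse1, Mdm2, Polk, Rps27l, Sesn1 and Trp53, in 13 of the 34 promoters of the 24 matched members, and in 8.36% of all promoters. CCAAT, the box bound by NF-Y, was present for 16 members, in 20 of the 34 promoters, and in 37.4% of all promoters. TTTGAA was present for 6 members, in 6 of the 34 promoters, and in 17.9% of all. GGGCGG, the GC box, was present for 18 members, in 22 of the 34, and in 35.7% of all. TATAAA was present for 2 members, in 2 of the 34, and in 13.6% of all. CATG, the 4 bases at the core of many p53 sites, was present for 12 members, in 12 of the 34, and in 61.1% of all. Part of the half-site and full-site matches contain CATG. These matches describe the letters in a short window, and some known p53 sites, such as that in the first intron of Mdm2, lie outside windows of this kind.

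**Figure D1:**
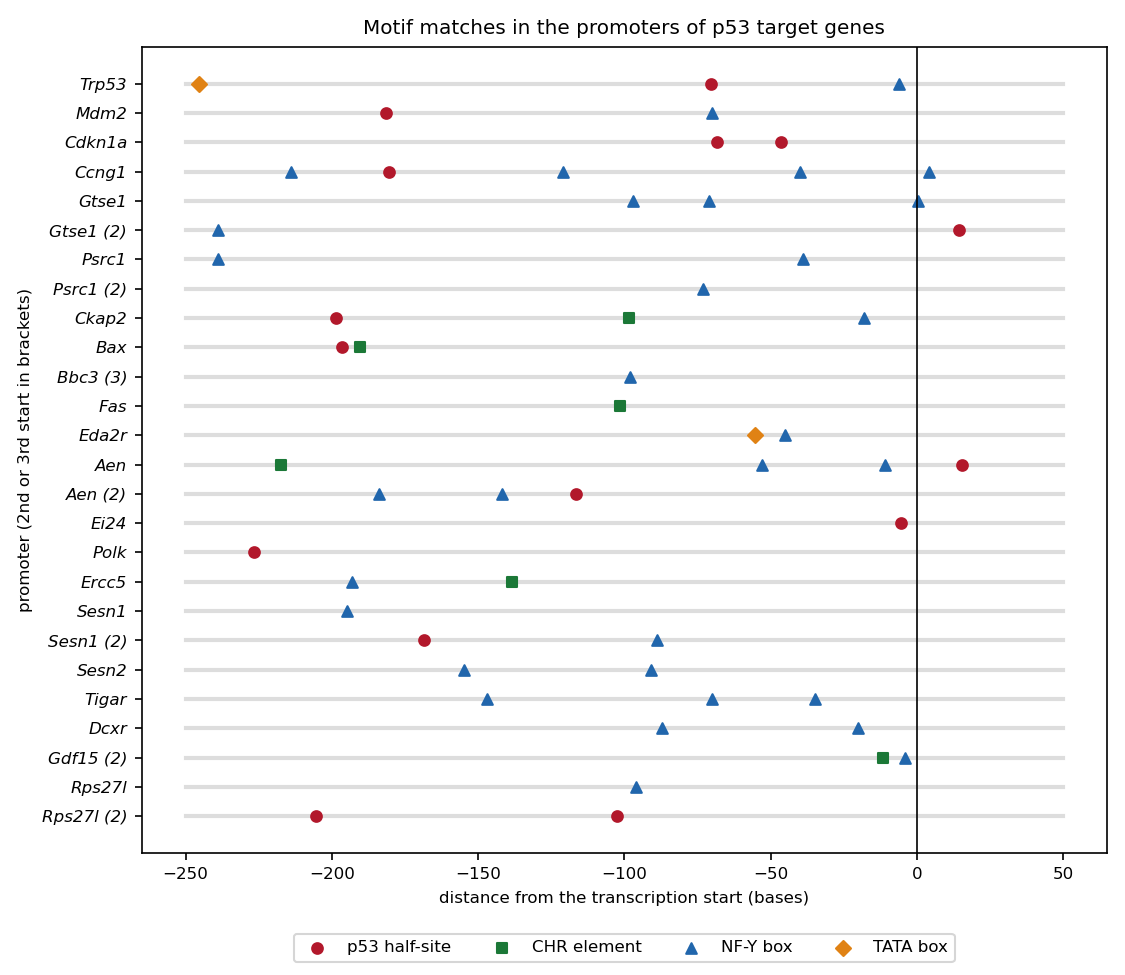
Each grey bar is 1 of the 26 member promoters with at least 1 of the motifs drawn, and the horizontal axis gives the distance from the transcription start in bases. Points, squares, triangles and diamonds mark the p53 half-site, the CHR element, the NF-Y box and the TATA box on either strand. The pair of points in Cdkn1a is its match to the full-site pattern.

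The p53 target genes changed little between these genotypes. Of the 29 genes tested, only Aen rose in DKO against VAV and only Pmaip1 rose in DKO against CDK19KO at a limma adjusted p under 0.05, and none fell in these 2 comparisons. The share of all tested genes that passed in either direction was 1.52% in DKO against VAV (0.830% higher, 0.694% lower) and 2.00% in DKO against CDK19KO (1.34% higher, 0.658% lower). No member passed in DKO against CDK8KO, where 1.70% of all genes did (1.05% higher, 0.651% lower), or in CDK8KO against VAV, where 0% did. None passed in CDK19KO against WT, where 0.0215% of all genes did, all of them lower, or in VAV against WT, where 0.0930% did (0.0716% higher, 0.0215% lower). None passed in the interaction, the difference of DKO minus CDK8KO less that of CDK19KO minus WT, where 0.150% of all genes did (0.0930% higher, 0.0572% lower). At an unadjusted limma p under 0.05 there were 4 members in DKO against VAV (13.8%), beside 15.7% of all genes, and 6 in DKO against CDK19KO (20.7%), beside 15.6%. There were 8 in DKO against CDK8KO (27.6%), beside 16.1%, and 6 in VAV against WT (20.7%), beside 14.8%. CDK8KO against VAV had 2 (6.90%), beside 8.31%, CDK19KO against WT none, beside 3.07%, and the interaction 1 (3.45%), beside 8.64%. DKO against CDK8KO was thus the comparison in which the members most exceeded the share of all genes, and the 8 there were Pmaip1, Xpc, Aen and Tigar, higher in DKO, and Fas, Plk3, Rps27l and Sesn1, lower in DKO. Cell type markers moved in that comparison as well. Red cell genes took 0.120% to 0.396% of reads in DKO and 0.392% to 3.40% in CDK8KO, and all 11 were on the lower side in DKO (median log2 fold change -1.71) without passing the test. Eosinophil genes took 0.0200% to 0.0880% of reads in DKO and 0.00722% to 0.0139% in CDK8KO, and 5 of 9 rose. Camp and Mmp8 of 10 late neutrophil genes and Cd163 of 7 macrophage genes fell, and Cd8a of 6 T cell genes rose. The same marker genes were called in the same directions in DKO against VAV, where the share of the members was 13.8%, beside 15.7%. No listed gene of these cell types was at 0 in DKO or CDK8KO, and the part of the cell types in the levels of the members was not tested.

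The median log2 fold change of the 29 genes was 0.04 in DKO against VAV, with 16 genes above 0 and 13 below, and that of all genes was -0.01. It was 0.04 in CDK8KO against VAV, 0.02 in CDK19KO against WT and 0.10 in VAV against WT. In DKO against CDK8KO and DKO against CDK19KO it was -0.01 and -0.02. The 95% interval of the fold change lay wholly within 2-fold in either direction for 23 of the 29 genes in DKO against VAV (79.3%), against 72.5% of all genes tested. For CDK8KO against VAV this held for 27 members (93.1%), against 76.4% of all genes. For CDK19KO against WT it held for 27 (93.1%), against 76.2%, and for VAV against WT for 24 (82.8%), against 70.4%. For DKO against CDK8KO it held for 26 (89.7%), against 72.7%, and for DKO against CDK19KO for 22 (75.9%), against 72.9%. For the interaction it held for 20 (69.0%), against 56.8%. The comparisons with VAV share the VAV libraries, and those with DKO share the DKO libraries. The libraries did not overlap for 4 members in DKO against VAV (8.49% of all genes), 2 in DKO against CDK8KO (7.43%), 7 in DKO against CDK19KO (15.0%), 3 in CDK19KO against WT (7.61%), 6 in VAV against WT (12.4%) and none in CDK8KO against VAV (1.76%).

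**Figure D2:**
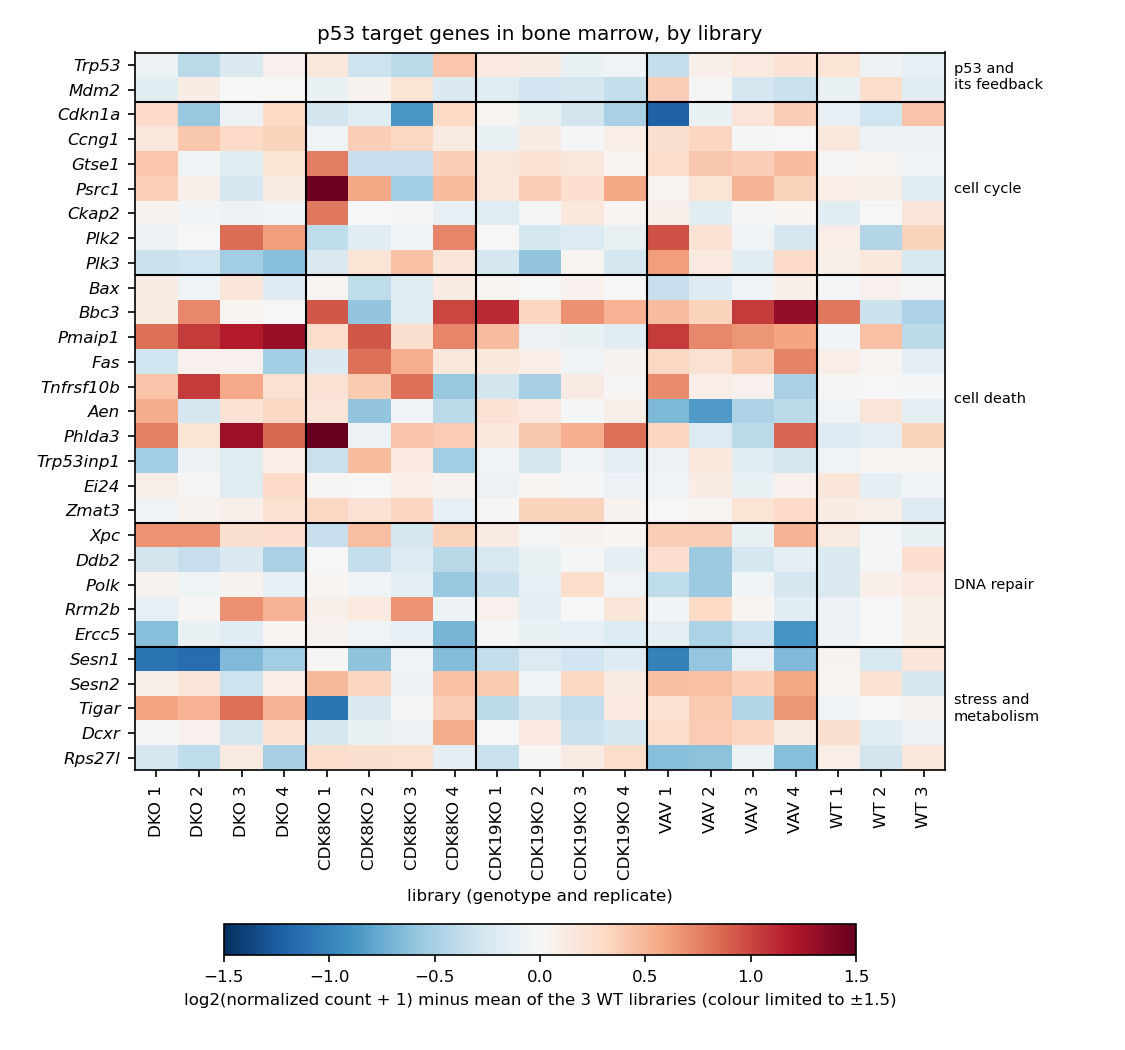
Rows are the 29 tested p53 target genes in order of role and columns the 19 libraries by genotype. Colour gives log2(normalized count + 1) minus the mean of the 3 WT libraries. The Pmaip1 row is red in the DKO, CDK8KO and VAV libraries, CDK19KO replicate 1 and WT replicate 2. The Aen row is blue in the VAV libraries and in some libraries of other genotypes.

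Levels differed far more between members than between genotypes. Per kilobase of exon, Trp53inp1 led with 1994 normalized counts as the mean of the 5 genotype means. Rps27l followed with 1931, Ccng1 with 987, Mdm2 with 557 and Trp53 with 438. Phlda3, which encodes an inhibitor of AKT, had 11.5 per kilobase and was the lowest of the 29. The SD within a genotype, as a share of the mean and taken per gene as its median over the 5 genotypes, lay between 5.82% and 33.1%, with a median of 15.0% over the 29 genes. In single genotypes it reached 82.0%, for Phlda3 in CDK8KO. The highest genotype mean was a median of 1.35 times the lowest, 18 genes stayed within 1.5-fold, and 2 genes reached 2-fold or more.

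Neither Trp53 nor Mdm2 passed the test in any comparison. Trp53, the gene for p53 (ENSMUSG00000059552; GRCm38/mm10 chr11:69580359-69591873), had 1679.9, 1345, 1538 and 1868 normalized counts in DKO, against 1399, 1881, 1985 and 2079 in VAV. It had 2009.7, 1440.2, 1355 and 2390.2 in CDK8KO, 1983, 1926, 1672 and 1719 in CDK19KO, and 2054, 1694 and 1641 in WT. All 5 groups overlapped, and the log2 fold change of DKO against VAV was -0.19 ± 0.17 (SE, adjusted p = 0.624 by limma; 95% interval -0.54 to 0.17). p53 is controlled mainly through the stability of the protein, which RNA does not report.

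Mdm2 (ENSMUSG00000020184; chr10:117688875-117710758) had 2625, 3193, 2929 and 2923 normalized counts in DKO, against 3796, 2982, 2448 and 2338 in VAV. The DKO libraries lay inside the range of VAV, with a log2 fold change of 0.04 ± 0.14 (SE, adjusted p = 0.921 by limma; 95% interval -0.25 to 0.33). The level was 2759.6, 3064, 3392 and 2539 in CDK8KO. It was 2593, 2414, 2477 and 2297 in CDK19KO, against 2733, 3533 and 2646 in WT, so every CDK19KO library lay below every WT library. That difference was -0.27 ± 0.15 on the log2 scale (SE, adjusted p = 1 by limma; exact permutation test, two-sided p = 0.0571, the smallest that 4 against 3 allows), and -0.14 without WT replicate 2. The means were 2445 ± 124 in CDK19KO and 2971 ± 489 in WT (SD, n = 4 and 3).

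The 7 cell cycle members showed no called change in any comparison. Cdkn1a encodes p21, the inhibitor of cyclin-dependent kinases through which p53 arrests cells (ENSMUSG00000023067; chr17:29090976-29100727). It had 173, 95.2, 133 and 174 normalized counts in DKO, against 60.6, 132, 161 and 183 in VAV, and all 4 DKO libraries lay within the range of VAV. The log2 fold change was 0.17 ± 0.31 (SE, adjusted p = 0.831 by limma; 95% interval -0.49 to 0.83). Cdkn1a stood at 116, 125, 76.6 and 175 in CDK8KO, at 145, 131, 117 and 101 in CDK19KO, and at 129.7, 114 and 191 in WT. The SD was 53.3 in VAV and 18.9 in CDK19KO (n = 4 each), and the interval does not reach a 2-fold change in either direction.

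Plk3, a polo-like kinase of the stress response (ENSMUSG00000028680; chr4:117128655-117133963, minus strand), was lowest in DKO without passing the test. It had 103, 105, 89.5 and 82.4 normalized counts in DKO. It had 111, 149, 175 and 146 in CDK8KO, 107, 85.0, 132 and 107 in CDK19KO, 199, 143, 114 and 158 in VAV, and 137, 144 and 109 in WT. Every DKO library was below every CDK8KO, VAV and WT library, while DKO and CDK19KO overlapped. The log2 fold change was -0.67 ± 0.20 in DKO against VAV (SE, adjusted p = 0.12 by limma) and -0.60 ± 0.20 in DKO against CDK8KO (limma adjusted p = 0.14). In CDK19KO against WT it was -0.27 ± 0.21 (SE, adjusted p = 1 by limma). DESeq2 on the recovered reads called it lower in DKO against VAV (adjusted p = 0.0391), as did limma without both red cell-rich libraries (0.0366) or with the red cell level as a covariate (0.0297). Over all genes, the main fit called 116 higher and 97 lower in DKO against VAV. These settings called 160 to 261 higher and 225 to 369 lower. Another gene overlaps Plk3 on the opposite strand, as for 7 of the 31 members, Cdkn1a and Tigar included, and whether reads were assigned by strand is not given in the sources used here.

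Gtse1, Psrc1 and Ckap2 encode proteins of the mitotic spindle and its microtubules and are most abundant in dividing cells. Gtse1 averaged 642 ± 118 normalized counts in DKO, 674 ± 261 in CDK8KO, 656 ± 34.2 in CDK19KO, 768 ± 44.7 in VAV and 591 ± 19.8 in WT (SD, n = 4, 4, 4, 4 and 3). The highest and lowest means of Psrc1 were 195 ± 106 in CDK8KO and 123 ± 12.5 in WT (SD, n = 4 and 3), and the lowest and highest of Ckap2 were 952 ± 36.0 in DKO and 1120.4 ± 373 in CDK8KO (SD, n = 4 each). CDK8KO replicate 1 held 1005 of Gtse1, 340.2 of Psrc1 and 1678 of Ckap2, the highest of all 19 libraries for each. The other 3 CDK8KO libraries lay between 892 and 963 for Ckap2, but still spread from 463 to 760.3 for Gtse1 and from 85.4 to 183 for Psrc1. That library also had the highest mean log2 level of the 12 proliferation genes, 12.25, against at most 11.80 in the others. The 12 proliferation genes, Mki67, Top2a and Cdk1 among them, were all on the lower side in DKO against VAV, with a median log2 fold change of -0.24, but none passed the test. Their summed share was 0.236% to 0.341% of reads in DKO and 0.343% to 0.427% in VAV, and the part of cell division in the levels of these members was not tested. Ccng1, for cyclin G1, which brings a phosphatase to MDM2, averaged 3889 ± 262 in DKO and 3198 ± 226 in CDK19KO (SD, n = 4 each) with no overlap, and Plk2, another polo-like kinase, stayed between means of 98.0 and 143.

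**Figure D3:**
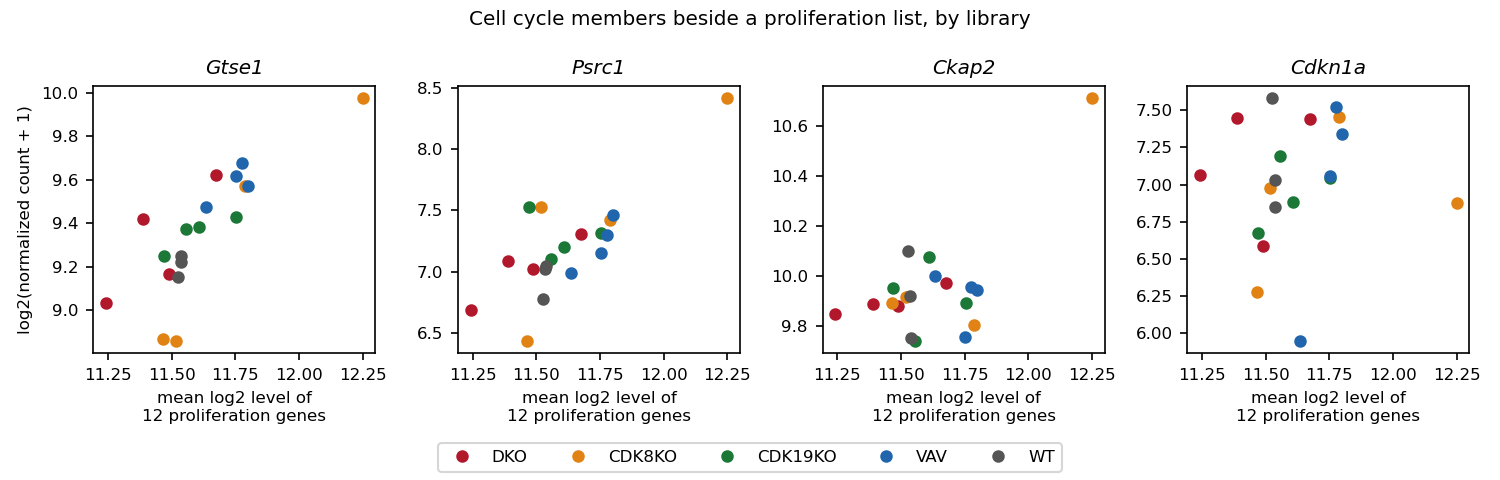
Each point is a library, coloured by genotype, with the mean log2 level of 12 proliferation genes on the horizontal axis and log2(normalized count + 1) of the member on the vertical axis. CDK8KO replicate 1 stands at the right and top for Gtse1, Psrc1 and Ckap2, and not at the top for Cdkn1a.

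Both called genes were among the cell death members, each in a different comparison. This was also the largest role, with 10 of the 29 tested members. Aen, a nuclease that cuts DNA in dying cells (ENSMUSG00000030609; chr7:78895854-78911209), had 596, 342, 473 and 504 normalized counts in DKO, against 253, 225, 295 and 307 in VAV. Every DKO library was above every VAV library. Aen rose 1.75-fold, a log2 fold change of 0.80 ± 0.18 (SE, adjusted p = 0.026 by limma; 95% interval 0.43 to 1.18; exact permutation test, two-sided p = 0.0286, the smallest that 4 against 4 allows). VAV was the low group: Aen had 391, 465 and 368 in WT and 471, 450.3, 402 and 433 in CDK19KO, all above VAV, and 461, 269.6, 392 and 307 in CDK8KO. The log2 fold change of VAV against WT was -0.60 ± 0.19 (SE, adjusted p = 0.179 by limma), that of CDK8KO against VAV 0.38 ± 0.18 (limma adjusted p = 0.586), and that of DKO against WT 0.21 (limma adjusted p = 0.663).

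The Aen call was lost without VAV replicate 1, VAV replicate 2, DKO replicate 1, DKO replicate 3 or DKO replicate 4 (limma adjusted p up to 0.0923), while the log2 fold change stayed at 0.69 or above in all 19 such fits. It was also lost without both muscle-rich libraries (log2 fold change 0.77, limma adjusted p = 0.119) and with only DKO and VAV in the fit (0.80, limma adjusted p = 0.104). Transcripts of the 9 eosinophil genes took 0.0200% to 0.0880% of reads in DKO and 0.00920% to 0.0161% in VAV, with none of the 9 at 0 in any library of either group, and 5 of them, Prg2, Prg3, Epx, Ear6 and Siglecf, rose in DKO against VAV. In the same comparison Camp and Mmp8 fell among 10 late neutrophil genes, Cd163 fell among 7 macrophage genes, and Cd8a rose among 6 T cell genes. The part of these cell types in the Aen result was not tested. Red cell transcripts took 0.120% to 0.396% of reads in DKO and 0.101% to 3.12% in VAV. With the red cell level as a covariate the log2 fold change of Aen was 0.85 (limma adjusted p = 0.00808), and with the proliferation level it was 0.97 (limma adjusted p = 0.0219).

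Pmaip1 encodes NOXA, which neutralizes the survival protein MCL1 (ENSMUSG00000024521). It had 272, 318, 349 and 381 normalized counts in DKO, against 212, 144, 143 and 135 in CDK19KO. It rose 2.09-fold, a log2 fold change of 1.06 ± 0.21 (SE, adjusted p = 0.0102 by limma; exact permutation test, two-sided p = 0.0286), and the libraries did not overlap. The 2 genotypes differ in both the Cdk8 allele and the Cre transgene. VAV, with Cre alone, had 318, 254, 242 and 232, against 149, 207 and 116 in WT, also without overlap, a log2 fold change of 0.76 ± 0.22 (SE, adjusted p = 0.152 by limma). CDK8KO had 186, 292, 181 and 255, and overlapped both VAV and WT. By mean, the order was DKO (330.0 ± 46.3), VAV (262 ± 39.0), CDK8KO (228 ± 54.4), CDK19KO (159 ± 35.8) and WT (157 ± 46.2; SD, n = 4, 4, 4, 4 and 3), so that the 3 genotypes with Vav-iCre stood above the 2 without it.

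The Pmaip1 call held in each of the 19 fits that leave out 1 library (limma adjusted p 0.00668 to 0.0432). It was lost without both muscle-rich libraries, DKO replicate 4 and CDK19KO replicate 4, where the log2 fold change was 0.92 (limma adjusted p = 0.112), and with the red cell level as a covariate (0.97; limma adjusted p = 0.0532). Red cell genes took 0.265% ± 0.120 of reads in DKO and 1.004% ± 0.379 in CDK19KO (SD, n = 4 each), with no overlap between the groups and none of the 11 genes at 0 in any library. In DKO against CDK19KO, Cd8a of 6 T cell genes rose, with the other 5 on the higher side, while Cd163 and Mrc1 of 7 macrophage genes and Camp of 10 late neutrophil genes fell. The part of these cell types in the Pmaip1 result was not tested.

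Fas, the death receptor (ENSMUSG00000024778; chr19:34290666-34327772), had 173, 224, 224 and 148 normalized counts in DKO, against 266, 251, 281 and 358 in VAV. All DKO libraries lay below VAV, with a log2 fold change of -0.59 ± 0.20 (SE, adjusted p = 0.158 by limma). With the proliferation level as a covariate it was -0.85 and passed (limma adjusted p = 0.0459). VAV also lay above WT, which had 229, 219 and 194, and above CDK19KO, which had 238, 229, 206 and 222. CDK8KO spread across the others with 184, 381, 311 and 240.4. The interaction for Fas was -0.56 ± 0.29 on the log2 scale (SE, adjusted p = 0.607 by limma).

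Bbc3, for PUMA, the other well known BH3-only killer under p53 (ENSMUSG00000002083; chr7:16308393-16318205), was low and uneven. It had 59.8, 34.0, 44.0 and 39.0 normalized counts in CDK19KO, against 47.2, 21.3 and 19.2 in WT, which overlapped (log2 fold change 0.67 ± 0.41, SE; limma adjusted p = 1). It had 29.05, 45.0, 27.4 and 27.0 in DKO and 52.2, 17.5, 24.1 and 55.0 in CDK8KO, against 37.5, 34.3, 56.6 and 68.8 in VAV. Bax, the pore-forming effector on which PUMA and NOXA act, had its highest mean in CDK19KO (378 ± 8.79) and its lowest in VAV (341 ± 42.9; SD, n = 4 each). Tnfrsf10b, the TRAIL receptor, averaged 331 ± 85.8 in DKO and 198 ± 37.4 in CDK19KO (SD, n = 4 each), without overlap and without passing the test. Trp53inp1, Ei24 and Zmat3, which encode a nuclear p53 cofactor, a membrane protein of the endoplasmic reticulum and an RNA-binding zinc finger protein, also passed in no comparison. Eda2r, a receptor of the TNF receptor family, had between 0.892 and 19.1 normalized counts in any library and was not tested.

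**Figure D4:**
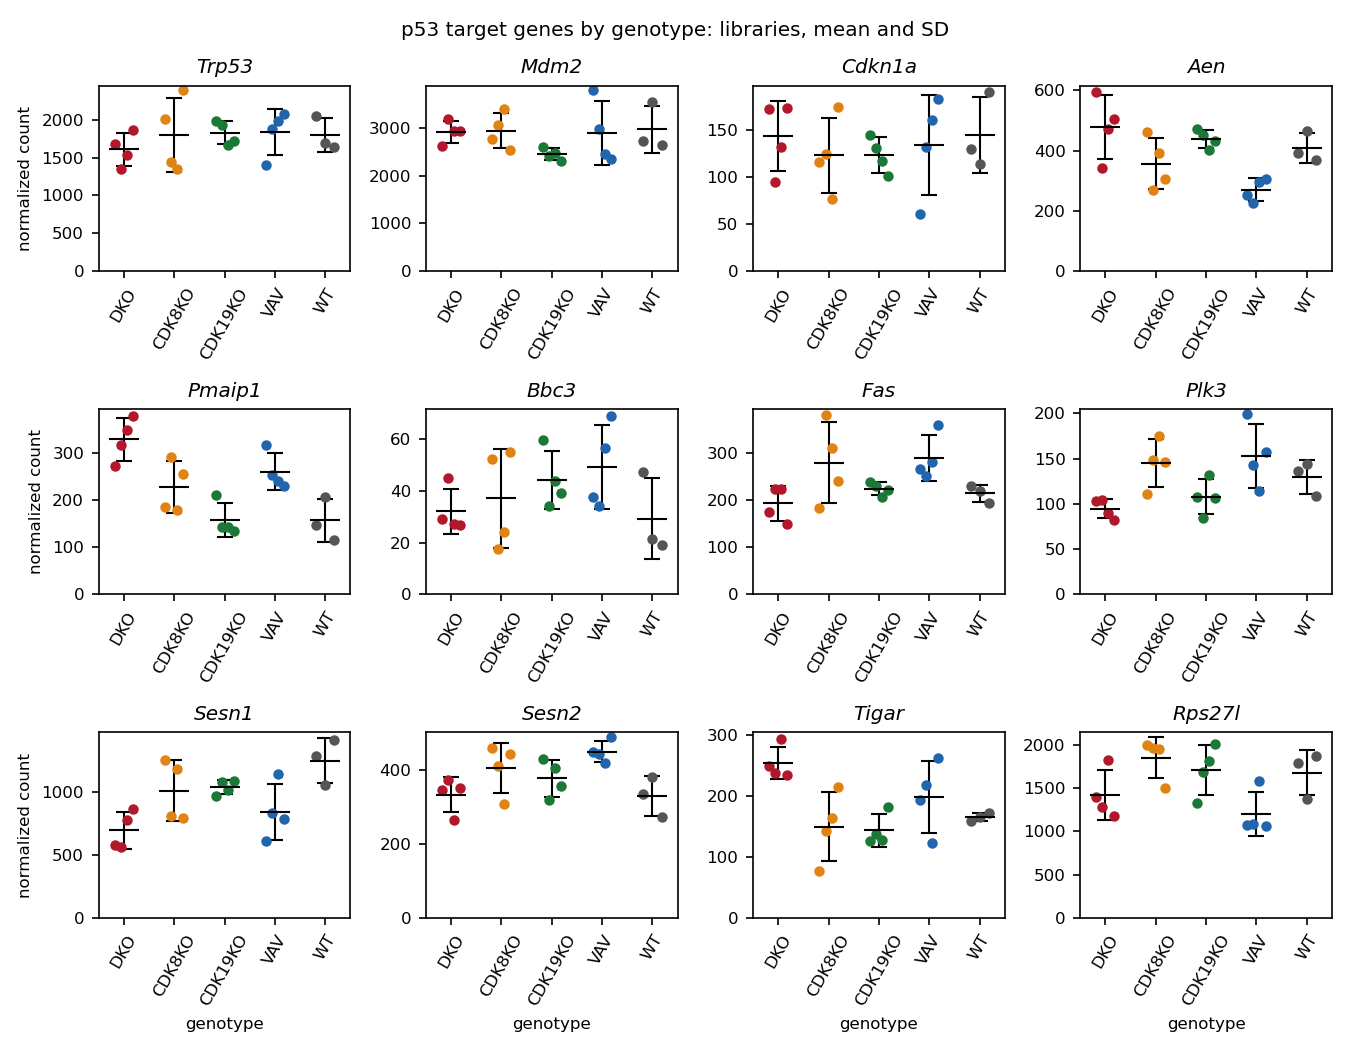
Normalized counts of 12 p53 target genes in each library (points), with the genotype mean (long line) and SD (bars), in the order DKO, CDK8KO, CDK19KO, VAV and WT. Aen is lowest in VAV (270.3 ± 37.9), and the mean of Pmaip1 is higher in DKO, CDK8KO and VAV than in CDK19KO and WT, although CDK8KO libraries overlap those of CDK19KO and WT.

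The 5 DNA repair members, of which Xpc, Ddb2 and Ercc5 serve nucleotide excision repair, Polk copies past lesions and Rrm2b supplies nucleotides, had no called change. Xpc averaged 971 ± 166 normalized counts in DKO, 742 ± 208 in CDK8KO, 719 ± 30.6 in CDK19KO, 861 ± 150.2 in VAV and 699 ± 62.8 in WT (SD, n = 4, 4, 4, 4 and 3), and DKO did not overlap CDK19KO. Ercc5 averaged 380.3 ± 79.8 in VAV and 513 ± 32.5 in WT (SD, n = 4 and 3) and did not overlap between them. The means of Ddb2 lay between 177 and 224, those of Polk between 279 and 344, and those of Rrm2b between 1284 and 1594. All 5 genes had genotype means within 1.5-fold of each other.

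Among the stress and metabolism members, Tigar and Sesn1 stood out by size without passing the test. Tigar encodes a phosphatase that lowers glycolysis and guards against oxidation (ENSMUSG00000038028; chr6:127085116-127109557, minus strand). It had 249.8, 238, 294 and 235 normalized counts in DKO, 77.2, 142, 163 and 214 in CDK8KO, 126, 138, 127 and 182 in CDK19KO, 193, 217, 122 and 263 in VAV, and 159, 166 and 171 in WT. Every DKO library lay above every CDK8KO, CDK19KO and WT library, but not above every VAV library. The log2 fold change was 0.85 ± 0.26 in DKO against CDK8KO (SE, adjusted p = 0.107 by limma) and 0.83 ± 0.26 in DKO against CDK19KO (limma adjusted p = 0.114). It was -0.45 ± 0.26 in CDK8KO against VAV (limma adjusted p = 0.606), and the interaction was 1.07 ± 0.38 (limma adjusted p = 0.445). The CDK8KO against VAV value was -0.17 without CDK8KO replicate 1 and -0.30 without VAV replicate 4. Without CDK8KO replicate 4 Tigar passed in DKO against CDK8KO (limma adjusted p = 0.0342). In DKO against CDK19KO it passed without CDK8KO replicate 1 or both red cell-rich libraries, with only the compared groups, with array weights and under DESeq2 (adjusted p 0.00729 to 0.0398). Calls over all genes rose in these settings too, from 147 higher and 91 lower to 230 and 192 in DKO against CDK8KO. In DKO against CDK19KO they rose from 187 higher and 92 lower to 280 to 724 higher and 161 to 527 lower.

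Sesn1 and Sesn2 encode sestrins, which restrain the growth kinase mTORC1. Sesn1 (ENSMUSG00000038332; chr10:41809935-41908424) had 580.2, 561, 780.0 and 862 normalized counts in DKO, 1255, 812, 1185 and 789.7 in CDK8KO, 967, 1078, 1018 and 1084 in CDK19KO, 612, 829, 1141 and 781 in VAV, and 1282, 1053 and 1410.5 in WT. DKO lay below CDK19KO and WT without overlap, and overlapped CDK8KO and VAV. The log2 fold change was -0.60 ± 0.19 in DKO against CDK19KO (SE, adjusted p = 0.129 by limma), -0.53 ± 0.19 in DKO against CDK8KO (limma adjusted p = 0.172) and -0.60 ± 0.21 in VAV against WT (limma adjusted p = 0.204). Without VAV replicate 3, the red cell-rich library, Sesn1 passed in VAV against WT (limma adjusted p = 0.0485), as it did with array weights (0.0409). Over all genes, the calls there were 10 higher and 3 lower in the main fit. They were 320 and 96 without that library and 462 and 178 with array weights. In DKO against CDK19KO Sesn1 passed with only the compared groups, with array weights and without both red cell-rich libraries (limma adjusted p 0.00934 to 0.0359). Over all genes, the calls in that comparison were 187 higher and 92 lower in the main fit. They were 470 to 724 higher and 410 to 527 lower in these settings. Sesn2 (ENSMUSG00000028893; chr4:132492032-132510501, minus strand) had 344, 371, 263 and 351 in DKO, 459, 409, 308 and 443 in CDK8KO, 428, 318, 405 and 355 in CDK19KO, 447, 441, 418 and 489 in VAV, and 335, 380.3 and 272 in WT. DKO and WT both lay below VAV without overlap, and the interaction was -0.47 ± 0.23 on the log2 scale (SE, adjusted p = 0.579 by limma).

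Rps27l, a ribosomal protein gene whose close paralog Rps27 can share its reads, had the smallest p in CDK8KO against VAV (ENSMUSG00000036781; chr9:66946086-66949516). It had 2002, 1966, 1959 and 1507 normalized counts in CDK8KO, against 1071, 1092, 1588 and 1068 in VAV, and the groups overlapped by 1 library each. The log2 fold change was 0.64 ± 0.17 (SE, adjusted p = 0.586 by limma; exact permutation test, two-sided p = 0.0571). DKO had 1399, 1283, 1831 and 1178, CDK19KO 1327, 1692, 1818 and 2011, and WT 1792, 1383 and 1872, and VAV had the lowest mean of the 5 genotypes. Dcxr, a sugar and dicarbonyl reductase, had genotype means between 74.8 and 97.2. Gdf15, a secreted stress cytokine, had 0.830, 2.60, 3.16 and 0 normalized counts in DKO and 7.61, 3.74, 21.9 and 2.26 in CDK8KO, against 2.68, 3.65, 9.59 and 6.71 in VAV, where 3 reads are worth 2.19 to 4.496 normalized counts. It was not tested.

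**Figure D5:**
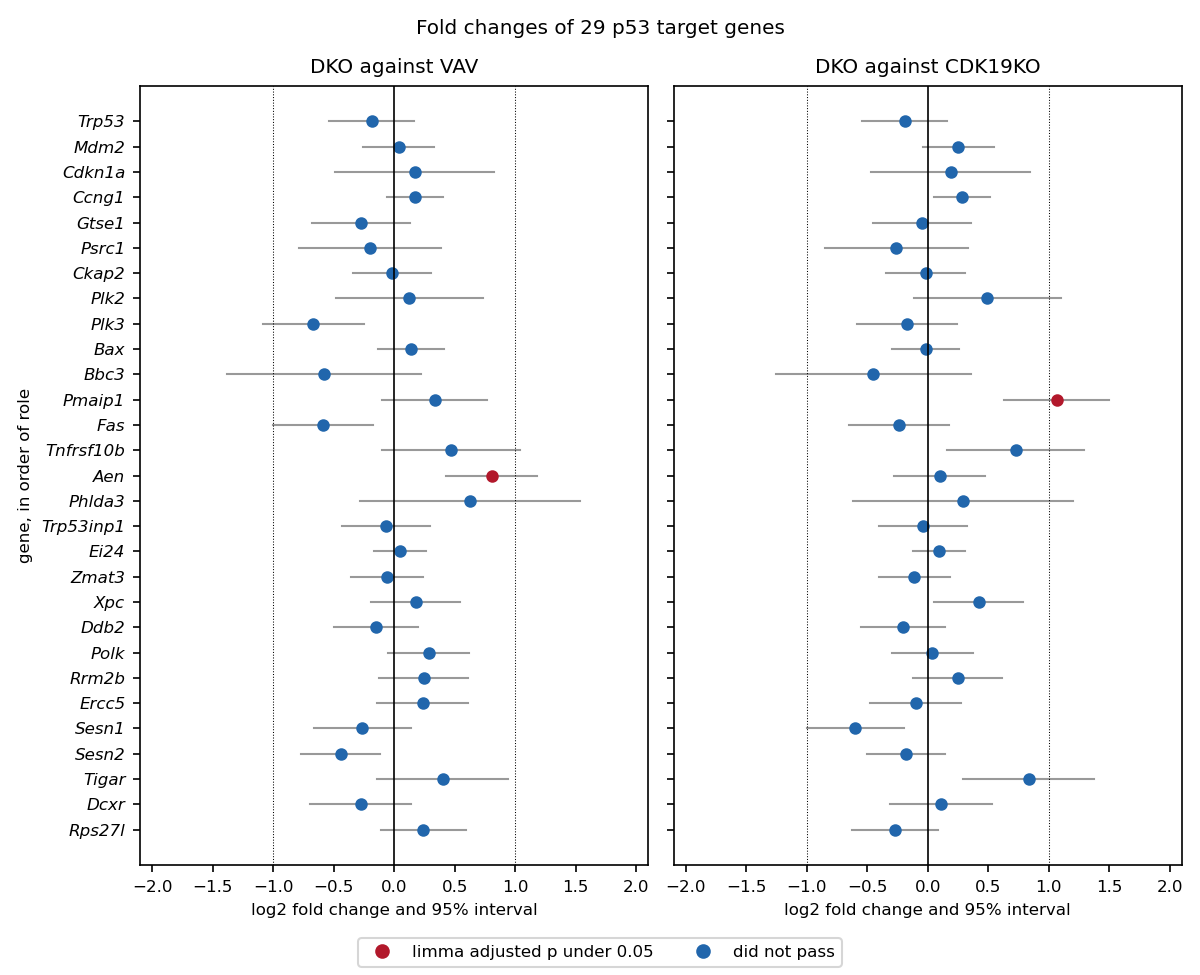
Points are log2 fold changes of the 29 tested members and lines their 95% intervals, in DKO against VAV and DKO against CDK19KO, with dotted lines at 2-fold in either direction. Aen in DKO against VAV and Pmaip1 in DKO against CDK19KO, in red, are the genes that passed.

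Of the wider pathway, 3 genes passed. Of 26 regulators of p53, such as kinases, ubiquitin ligases and ribosomal proteins that hold MDM2, 23 were tested. Of these, 1 passed in VAV against WT, where 0.0930% of all genes did, and none in the other 6 comparisons. Rpl5, a ribosomal protein that binds MDM2, fell to 693, 655, 952 and 745 normalized counts in VAV, against 1259, 1388 and 1377 in WT, without overlap (log2 fold change -0.83 ± 0.15, SE; limma adjusted p = 0.0355). Rpl5 also has many processed copies in the genome that can share its reads. Its call was lost without any 1 of the 3 WT libraries, VAV replicates 1, 2 and 4, CDK8KO replicate 3 or any 1 of the 4 CDK19KO libraries (limma adjusted p up to 0.199). It was also lost with only the compared groups (limma adjusted p = 0.226). Of all alternatives, 14 lost the Rpl5 call and 19 kept it. The median over these 23 genes was -0.08 in VAV against WT and -0.05 in DKO against VAV.

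Of 36 further p53 targets, 33 were tested and 2 passed, both in DKO against CDK8KO, where 1.70% of all genes did, with none called in the other 6 comparisons. At an unadjusted limma p under 0.05 there were 10 (30.3%) in DKO against CDK8KO, beside 16.1% of all genes, and 9 (27.3%) in the interaction, beside 8.64%. DKO against CDK19KO had 6 (18.2%), beside 15.6%. The share was below that of all genes in DKO against VAV (3, 9.09%, beside 15.7%) and VAV against WT (2, 6.06%, beside 14.8%). It was also below in CDK8KO against VAV (1, 3.03%, beside 8.31%) and CDK19KO against WT (0, beside 3.07%). Sulf2, which edits heparan sulfate outside the cell, had 382, 506, 399 and 456 normalized counts in DKO, against 523, 1357, 949.9 and 1164 in CDK8KO (log2 fold change -1.12 ± 0.26, SE; limma adjusted p = 0.0343). Cd80, a costimulatory ligand of T cells, had 235, 306, 212 and 271 in DKO, against 109.8, 159.7, 171 and 109 in CDK8KO (log2 fold change 0.91 ± 0.22, SE; limma adjusted p = 0.0439). Neither gene overlapped between the groups. With the red cell level as a covariate the log2 fold change of Cd80 was 0.77 (limma adjusted p = 0.145). With the proliferation level it was 0.67 (limma adjusted p = 0.276), so the Cd80 call was lost with either covariate. The part of the other cell type markers that moved in this comparison was not tested. The Sulf2 call was lost without any 1 of the DKO libraries or CDK8KO replicates 2, 3 and 4 (limma adjusted p up to 0.092). It was also lost with only the compared groups (limma adjusted p = 0.134). Of all alternatives, 9 lost the Sulf2 call and 24 kept it. The Cd80 call was lost without any 1 of the DKO or WT libraries, CDK8KO replicates 1 and 4 or CDK19KO replicates 1 and 4 (limma adjusted p up to 0.135). It was also lost under edgeR (adjusted p = 0.052), with only the compared groups (limma adjusted p = 0.145) and with array weights (limma adjusted p = 0.171). Of all alternatives, 20 lost the Cd80 call and 13 kept it. The median over the 33 genes was -0.19 in DKO against CDK8KO and -0.15 in DKO against VAV, where the median of all genes was 0.00 and -0.01.

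Perp, a p53 target of cell junctions and cell death kept outside the list, had 384, 484, 485 and 468 normalized counts in DKO, against 20.5, 25.5, 26.1 and 38.6 in VAV. Its log2 fold change of 4.02 ± 0.32 (SE, adjusted p = 5.25e-07 by limma) compares with a range of -0.67 to 0.80 over the 29 members in the same comparison.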

How the data were processed

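RNA of bone marrow was sequenced in 19 libraries of 5 genotypes. The authors deposited a signal per gene and library, namely counts divided by the size factor of that library (normalized counts). The submitters' processing notes name Salmon 1.4.0, DESeq2 and mm10, with no role. All values were whole multiples of 1 step per library, within 0.001 read, so whole reads were recovered, and size factors from them matched the deposited scaling (ratios 0.997 to 1.00). Log2(normalized count + 1) was fitted with limma 3.58.1 in R 4.3.3 (eBayes with trend, all 5 groups, no covariate) on the 13976 genes whose mean reached 10. Benjamini-Hochberg adjustment ran over all these genes within each of 7 comparisons, and the threshold was 0.05. A fold change on this scale understates that of low genes. edgeR 4.0.16 and DESeq2 1.42.0 on the recovered reads, other pseudocounts, filters, covariates, controls and left-out libraries were alternatives.

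Genes given in every library were Trp53, Cdkn1a, Mdm2, each called member, and the 3 members with the smallest p of each comparison; any other member was given after its values were seen. The members and lists were chosen with earlier results of these data known. Values after ± are the SD of normalized counts or the SE of log2 fold changes. Coordinates and exon lengths are GENCODE vM21 on GRCm38/mm10, matched by Ensembl ID for 34415 of 34432 genes. Exact tests were two-sided permutations of libraries. A count of 0 allows up to 3 reads, which is 2.19 to 4.496 normalized counts here and covers counting error only. Libraries of a genotype differed by more than sampling noise (chi-square of counts over its degrees of freedom at least 15.5).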

Additional observations from a re-analysis of the deposited data

Results flagged for a closer look

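In 116 sets of 4 libraries (29 members in 4 genotypes), the library farthest from the others was screened with Dixon's ratio at its 95% critical value. Chance flags about 1 in 20 such sets, and 6 were found here. Ckap2 was high in CDK8KO replicate 1, with 1678 normalized counts beside 892 to 963 in the other CDK8KO libraries. Phlda3 was high in the same library, with 54.3 beside 11.2 to 16.4. Rps27l was low in CDK8KO replicate 4, with 1507 beside 1959 to 2002, and high in VAV replicate 3, with 1588 beside 1068 to 1092. Bbc3 was high in DKO replicate 2, with 45.0 beside 27.0 to 29.05. Pmaip1 was high in CDK19KO replicate 1, with 212 beside 135 to 144. CDK8KO replicate 1 and VAV replicate 3 are the libraries richest in red cell transcripts.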

How the results depend on the processing

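For DKO against VAV, 1 member was called, Aen. It was 2 with DESeq2, without both red cell-rich libraries or with the red cell level as a covariate (Aen and Plk3), 2 with the proliferation level as a covariate (Aen and Fas), and 2 with WT as the control (Pmaip1 and Sesn1, without Aen). It was 0 with only the compared groups in the fit or without both muscle-rich libraries, and 0 to 1 with 1 library left out. For DKO against CDK19KO, 1 was called, with 2 under DESeq2, 3 with only the compared groups, 4 with array weights and 3 without both red cell-rich libraries. It was 0 without both muscle-rich libraries or with the red cell level as a covariate, and 1 to 2 with 1 library left out. For VAV against WT it was 0, with 1 under array weights, 2 without both red cell-rich libraries and 0 to 1 with 1 library left out, and for DKO against CDK8KO it was 0, and 0 to 1 with 1 library left out. Calls over all 13976 genes moved too. In VAV against WT, 10 rose and 3 fell, with 462 and 178 under array weights and 703 and 357 without both red cell-rich libraries. In DKO against CDK19KO, 187 rose and 92 fell, with 724 and 527 under array weights and 63 and 34 without both muscle-rich libraries. In DKO against VAV, 116 rose and 97 fell, with 261 and 243 under DESeq2 and 51 and 71 with the proliferation covariate. The cause of these moves was not tested.

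The sign of 5 log2 fold changes, none of them called, turned. Aen in CDK8KO was -0.22 against WT, Bbc3 in CDK19KO was -0.13 against VAV, and Trp53 in DKO against VAV was 0.0105 with the proliferation covariate. Cdkn1a in DKO was -0.0187 against WT, and -0.17 to 0.35 against VAV with 1 library left out. Mdm2 in DKO was -0.0171 against WT, and against VAV -0.0340 without both red cell-rich libraries, -0.0794 with the proliferation covariate and -0.0561 to 0.177 with 1 library left out. Of 936 values of 28 gene results under the alternatives, 856 kept their direction and their side of the threshold, 53 lost the call, 16 gained one and 11 turned.

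Replicate numbers did not pair the libraries (correlations of deviations -0.274 to 0.306, with 4 of 19 libraries closest to their own number). With the replicate number as a block, 1 member each was still called in DKO against VAV (Aen, log2 fold change 0.80, limma adjusted p = 0.0315) and DKO against CDK19KO (Pmaip1, 1.06, limma adjusted p = 0.0171). At these depths Eda2r and Gdf15 were too low to test.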

Other observations

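The following libraries were chosen after their values were seen. VAV replicate 1 had the highest Mdm2 (3796 normalized counts), Plk2 (210.5) and Plk3 (199) of the 19 libraries and the lowest Cdkn1a (60.6). CDK8KO replicate 1 had the highest Phlda3 (54.3) and Psrc1 (340.2) and the lowest Xpc (548) and Tigar (77.2).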
